A study of Mus musculus with 20 samples.

Results

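The genes described here take glucose into cells, break it down by glycolysis or build it into glycogen. They were Slc2a4, Pfkl, Gapdh, Pgk1, Pkm and Gbe1, followed in liver and brown adipose tissue of 2 mouse lines named Fob3b and F. Every clone paired with exactly 1 of these 6 genes on either of 2 array designs was taken, which gave 9 of 15360 clones and 6 of 6970 genes. The first design held 7 of these clones, with 2 each for Pkm and Pfkl and 1 each for Gapdh, Pgk1 and Gbe1. The second design held 2, with 1 for Pkm and 1 for Slc2a4. A clone is named below by the number of its first spot. The 4 further clones on the first design that the annotation pairs with Gapdh together with Gapdh-like copies were not members, and their values are given apart.

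The F line was bred for high body fat, and the Fob3b line is named for an obesity locus mapped in crosses of the F line with a lean line. The labels give line, tissue and pool, and neither age, sex nor the number of animals in a pool is given in the sources used here. Total RNA of 2 pools per line and tissue was hybridised to spotted cDNA arrays, 10 per design, each array reading 1 RNA in green and another in red. On the first design, pool pairs 1 and 2 of both tissues (Fob3b against F, pools of the same number) were read once in each dye orientation, and 1 F liver pool and 1 Fob3b liver pool were each read against themselves. The second design held liver pool pairs 1 and 2 and brown adipose pool pair 1 in both orientations. It also held 2 liver arrays with crossed pools and 2 liver arrays comparing pools within a line. The channel labels of the brown adipose arrays on the second design name Fob3b and F, although their descriptions name F on both sides, and the channel labels were followed, as they were for the Fob3b self against self array, whose description also differs from its channels.

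Glucose enters fat and muscle cells through GLUT4, the product of Slc2a4, which insulin moves to the cell surface. Inside the cell, phosphofructokinase commits glucose to glycolysis, glyceraldehyde-3-phosphate dehydrogenase and phosphoglycerate kinase carry the middle steps, and pyruvate kinase closes the pathway by making pyruvate and ATP. Brown adipose tissue burns fat and glucose to make heat, while liver both stores and releases glucose and relies on other main isoforms of the transporter and of pyruvate kinase.

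All values below are log2 ratios of Fob3b over F, with 0 at the median spot of each array. The deposited ratios state neither log base nor numerator. They were read as log2 of red over green, and the opposite reading would turn every sign together. As deposited, the median of an array lay between -0.04 and 1.40 for the 10 arrays of the first design, and between -0.82 and 0.31 for the others. Across clones, the 2 spots correlated at 0.76 to 0.93 on these 10 arrays and at 0.64 to 0.87 on the second design's. The dye orientations of a brown adipose pool pair, once turned to the same direction, correlated over all clones of the first design at -0.23 in pair 1 and -0.60 in pair 2. The 2 pairs correlated at -0.24 with each other. In liver on the first design these correlations were 0.16, -0.29 and -0.20. On the second design they were positive, at 0.47 for the brown adipose pair, 0.08 and 0.40 within the liver pairs and 0.23 between them. The orientations were averaged within a pool pair, so n was 2 pool pairs per tissue. A p-value or interval from limma measures spread between pools, but not that of the 2 pool pairs of a tissue alone. Each clone's variance was drawn toward that of all clones. On the first design it was also shared by both tissues. Gapdh there had a standard error of 0.23 in both tissues. Its SD between pool pairs was 0.05 in brown adipose tissue and 0.63 in liver. Nothing in the labels says how many animals the pools hold. Ratios of bulk RNA cannot tell a change in RNA per cell from a change in the share of cells of a type.

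All 7 member clones of the first design had a mean ratio above 0 in brown adipose tissue, from 0.33 to 0.56 with a median of 0.45. These positive brown adipose ratios were among the results known when the genes were chosen, so the members were selected on them and they are a description without a test. No clone of the 7680 on this design passed an adjusted p of 0.05 in limma (0%), although 65 had an unadjusted p under 0.05. Nothing about the members is read from that count. Each member clone lay above at least 96.9% of all clones on its design.

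Pkm, which encodes the pyruvate kinase of most tissues other than liver, had the highest means. Its clone 3702 read 0.93 and 0.36 in pool pair 1 with Fob3b in red and in green, and 1.33 and -0.36 in pool pair 2. Its clone 6582 read 0.77 and 0.30 in pair 1, and 1.63 and -0.51 in pair 2. Both clones were thus high whenever Fob3b was in red, moderate on the green array of pair 1 and below 0 on the green array of pair 2. Averaged over the dyes, pair 1 gave 0.64 and pair 2 0.48 for clone 3702, a mean of 0.56 ± 0.11 (SD, n = 2 pool pairs) or 1.48-fold. For clone 6582 the pairs gave 0.53 and 0.56, a mean of 0.55 ± 0.02 (SD, n = 2) or 1.46-fold. The pairs were close only after averaging dye orientations that lay far apart in pair 2. Leaving out the red array of pair 2 took clone 6582 to 0.01, and leaving out the green array took it to 1.08. Over all 10 arrays of the first design the 2 Pkm clones differed by at most 0.33, with a median difference of 0.14.

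Pfkl encodes the liver type of phosphofructokinase, the enzyme that commits sugar to glycolysis. Its clone 5174 read 0.61 and 0.27 in pool pair 1 (red, then green) and 0.93 and -0.003 in pair 2, with a mean of 0.45 ± 0.02 (SD, n = 2 pool pairs). Its clone 140 read 0.68 and 0.29 in pair 1 and 0.56 and -0.22 in pair 2, with a mean of 0.33 ± 0.22 (SD, n = 2). Both clones were lowest on the green array of pair 2, as the Pkm clones were. Gapdh, which encodes the dehydrogenase that starts the energy-yielding phase of glycolysis, read 0.43 and 0.49 in pair 1 and 1.12 and -0.34 in pair 2. Its mean was 0.42 ± 0.05 (SD, n = 2) or 1.34-fold. The 4 clones shared by Gapdh and its copies had means of 0.39 to 0.54, and on the green array of pair 2 all 4 were negative, from -1.02 to -0.50.

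Pgk1 and Gbe1 were the only members above 0 on all 4 brown adipose arrays of the first design. This held for 198 of the 7680 clones (2.58%). Pgk1, encoding the phosphoglycerate kinase that makes the first ATP of glycolysis, read 0.25 and 0.54 in pair 1 (red, then green) and 0.28 and 0.47 in pair 2. Its mean was 0.39 ± 0.01 (SD, n = 2 pool pairs) or 1.31-fold, and for this clone the green arrays were the higher ones. Gbe1, encoding the branching enzyme that shapes glycogen, read 0.67 and 0.89 in pair 1 and 0.17 and 0.14 in pair 2. Its mean was 0.47 ± 0.44 (SD, n = 2), since pair 1 averaged 0.78 and pair 2 0.15. For Gbe1 the spread lay between pools. For Pkm it lay between dyes, most of all in pair 2, and for Gapdh between the dyes of pair 2 alone.

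**Figure D1:**
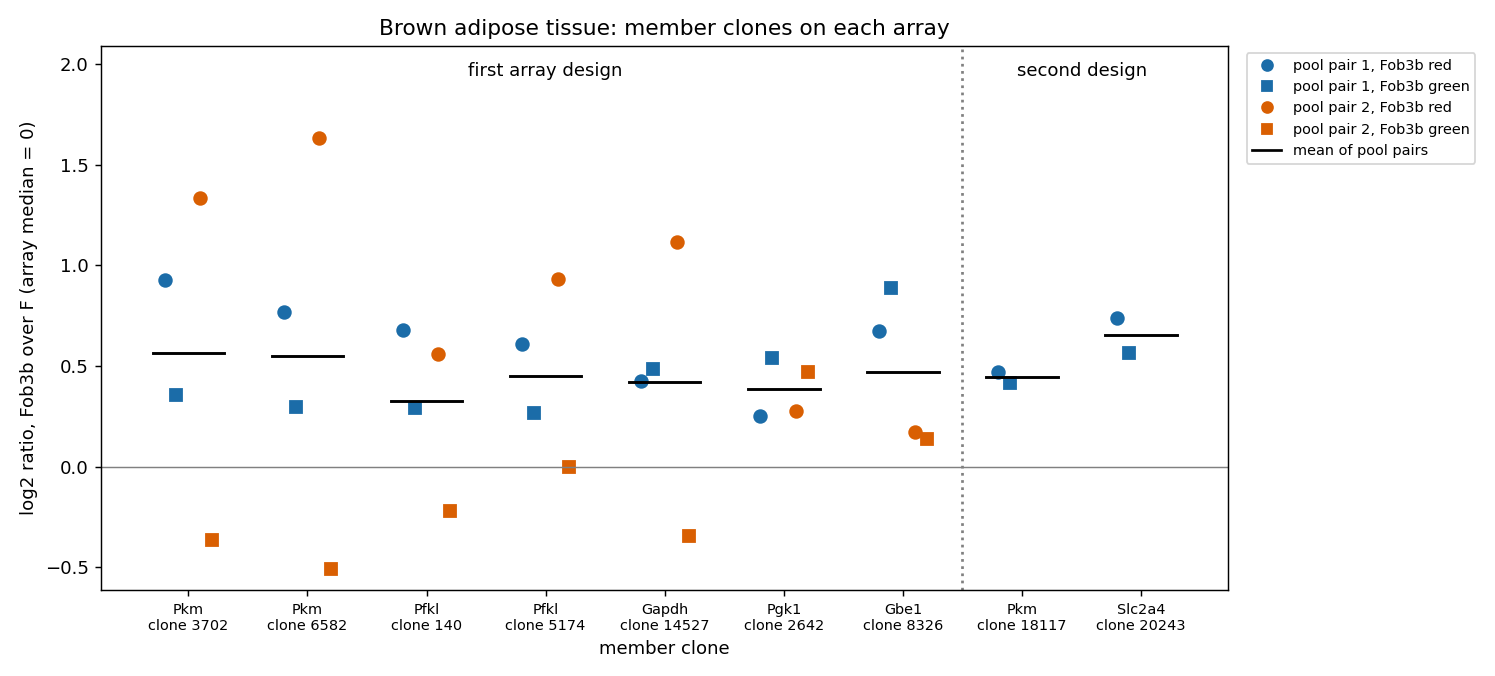
Log2 ratio of Fob3b over F in brown adipose tissue for each member clone (horizontal axis) on each array, with circles for Fob3b in red, squares for Fob3b in green, blue for pool pair 1, orange for pool pair 2, and a bar for the mean of the pool pairs. On the first design the orange squares of 5 of the 7 clones lie below 0, while Pgk1 and Gbe1 stay above 0 on all 4 arrays.

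Taken by array, all 7 clones were positive on both arrays of pair 1 (medians of 0.67 with Fob3b in red and 0.36 in green) and on the red array of pair 2 (median 0.93). On the green array of pair 2 only 2 of 7 were positive and the median was -0.22. Every member clone was thus positive on 3 of the 4 arrays, and the fourth split them.

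On the second design both members were positive on both brown adipose arrays, which was true of 2296 of 7680 clones (29.9%). Only pool pair 1 was read there, so there is no replicate and no test, and these ratios too were known when the genes were chosen. Slc2a4 read 0.74 with Fob3b in red and 0.56 in green, a mean of 0.65 or 1.57-fold. It was 1 of 46 clones (0.599%) with a ratio past 1.5-fold in that direction. Pkm clone 18117 read 0.47 and 0.42, a mean of 0.44 or 1.36-fold, and did not pass that fold. The 2 orientations of each clone lay closer to each other than those of any Pkm or Pfkl clone on the first design. Without centring, which moves the median clone by -0.36 in this comparison, Slc2a4 read 0.29 and Pkm 0.08.

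Brown adipose pool pair 1 was read on both designs, so 7 genes of glucose metabolism could be set side by side in the same RNA. Pkm averaged 0.59 over its 2 clones of the first design, and its clone on the other read 0.44. Tkt, the transketolase of the pentose phosphate pathway, gave 0.73 and 0.70. Phkb, a regulatory subunit of phosphorylase kinase, gave 0.25 and 0.26, G6pc3 0.17 and 0.14, and Mlx 0.15 and 0.10. The remaining genes did not match. Pygl, the liver type of glycogen phosphorylase, gave 0.01 and 0.48. Gsk3b, a kinase that restrains glycogen synthase, differed in sign, at -0.15 and 0.28. Tkt had the highest ratio of the 7 on both readings, and Pkm stood below Tkt on the first and below Tkt and Pygl on the second. These readings share their RNA and are not replicates.

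The start regions of 3 members are shown because Pkm had the highest ratios on the first design and Pgk1 and Gbe1 were the members positive on every array there. Each is the 250 bases before a RefSeq transcript start, 5′ to 3′ on the plus strand of GRCm38.p6, with matches to ACGTG on either strand in capitals. ACGTG is the core bound by hypoxia-inducible factor, a known regulator of glycolytic genes, and it also lies within the E-box CACGTG bound by carbohydrate-response and Myc family factors.
Pkm, chr9:59656326-59656575: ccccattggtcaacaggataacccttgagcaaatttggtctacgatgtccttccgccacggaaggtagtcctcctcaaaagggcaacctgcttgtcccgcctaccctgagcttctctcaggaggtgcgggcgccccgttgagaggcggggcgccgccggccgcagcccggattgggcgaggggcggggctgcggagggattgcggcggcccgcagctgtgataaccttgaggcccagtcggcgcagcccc
Pgk1, chrX:106186850-106187099: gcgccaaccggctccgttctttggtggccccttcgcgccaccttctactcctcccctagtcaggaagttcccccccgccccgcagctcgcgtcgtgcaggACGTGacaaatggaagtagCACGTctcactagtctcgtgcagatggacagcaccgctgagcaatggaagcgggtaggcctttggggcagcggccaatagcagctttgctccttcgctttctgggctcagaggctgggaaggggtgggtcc
Gbe1, chr16:70313699-70313948: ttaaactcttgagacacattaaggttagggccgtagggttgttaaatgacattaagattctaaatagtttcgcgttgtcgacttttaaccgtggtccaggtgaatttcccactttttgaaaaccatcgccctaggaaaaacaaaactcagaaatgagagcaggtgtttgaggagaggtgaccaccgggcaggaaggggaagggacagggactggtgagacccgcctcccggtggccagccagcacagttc
The Pgk1 window held 2 matches, 1 on each strand, and the Pkm and Gbe1 windows shown held none. Over the 6 windows of the 5 member genes in the RefSeq table, ACGTG was found in 2, against 16.6% of all 32851 windows of this length, and the second was another start of Pkm. CACGTG was found in 0 of 6, against 6.02% of all windows. These are matches of letters and say nothing of binding.

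The wider pathway was described with 6 groups holding 95 genes of glucose metabolism, with 31 measured on the first design and 29 on the other. Of the 31, 28 gene means were above 0 in brown adipose tissue, with a median of 0.13, beside 59.3% of all 3838 genes and their median of 0.03. With printing blocks centred 23 of the 31 were above 0, and without centring all 31 were. Without the members 23 of 26 were above 0 with a median of 0.09. By pool pair, 18 of the 26 were positive in pair 1 and 17 in pair 2, beside 55.9% and 53.2% of all genes. By dye, 15 of the 26 were positive with Fob3b in red and 15 in green, beside 53.3% and 48.2% of all genes. On the green array of pair 2 only 10 of the 26 were positive, beside 44.8% of all genes. Each other array had 16 or 18 positive. None of the 40 clones in these groups passed the adjusted threshold, as no clone of the design did.

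In the glycolysis group 8 of 8 measured genes had positive means there with a median of 0.36, but 4 of the 8 are members selected on these ratios. The group's median was 0.62 over the arrays with Fob3b in red and 0.07 over those with Fob3b in green, and on the green array of pair 2 only 2 of 8 were above 0 (median -0.19). The other 4 genes also had means above 0. Aldoa, the aldolase of most tissues, averaged 0.34, with 0.62 in pair 1 and 0.06 in pair 2. Pgam1, a phosphoglycerate mutase, averaged 0.29 (0.30 and 0.29), Ldha, which converts pyruvate to lactate, 0.14 (0.17 and 0.12), and Aldoc 0.07 (-0.11 and 0.24). Each of these 4 had at least 1 array of 4 below 0. In the pentose phosphate group, Tkt averaged 0.65 (0.73 and 0.57), ranging over the arrays from -0.42 to 1.55, and Rpe 0.12. The arrays of Tkt thus spread about as widely as those of Pkm.

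The other groups of the first design lay closer to 0 in brown adipose tissue. The 3 gluconeogenesis genes had a median of 0.21, with G6pc3 at 0.25, Pck2 at 0.21 and Fbp2 at 0.02. Of 6 glycogen genes 5 were positive with a median of 0.07, Gbe1 standing highest. The glucose transporters measured were Slc2a8 at 0.04, Slc2a1, the transporter of basal glucose uptake, at 0.02, and Slc2a3 at -0.08. Among regulators of glucose use 8 of 9 were positive with a median of 0.05, led by Pdk1, a kinase that shuts off pyruvate dehydrogenase, at 0.29.

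On the second design, 24 of 29 pathway genes were above 0 in brown adipose pool pair 1 with a median of 0.26, beside 56.1% of 4075 genes and a median of 0.03. Among these 29, Pkm and Slc2a4 are members selected on these ratios. Without the members 22 of 27 were above 0, with a median of 0.23. Without centring 9 of the 29 were above 0. All 5 glycolysis genes were positive, with Hk1, a hexokinase, at 0.42, Tpi1, triose phosphate isomerase, at 0.36, Ldhb at 0.30 and Pfkm, the muscle type of phosphofructokinase, at 0.09. Of 11 glycogen genes 10 were positive with a median of 0.27. They were led by Ppp1r3b, which targets a phosphatase to glycogen, at 0.55, Pygl at 0.48, Ugp2, which makes UDP-glucose, at 0.44, and Gyg, the primer of glycogen, at 0.38. Taldo1, the transaldolase of the pentose phosphate pathway, read 0.45, and Pcx, pyruvate carboxylase, 0.32. The regulators were split, 3 above and 3 below 0, with Pfkfb3, which makes the activator of phosphofructokinase, at -0.26 and Pdk3 at -0.26.

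**Figure D2:**
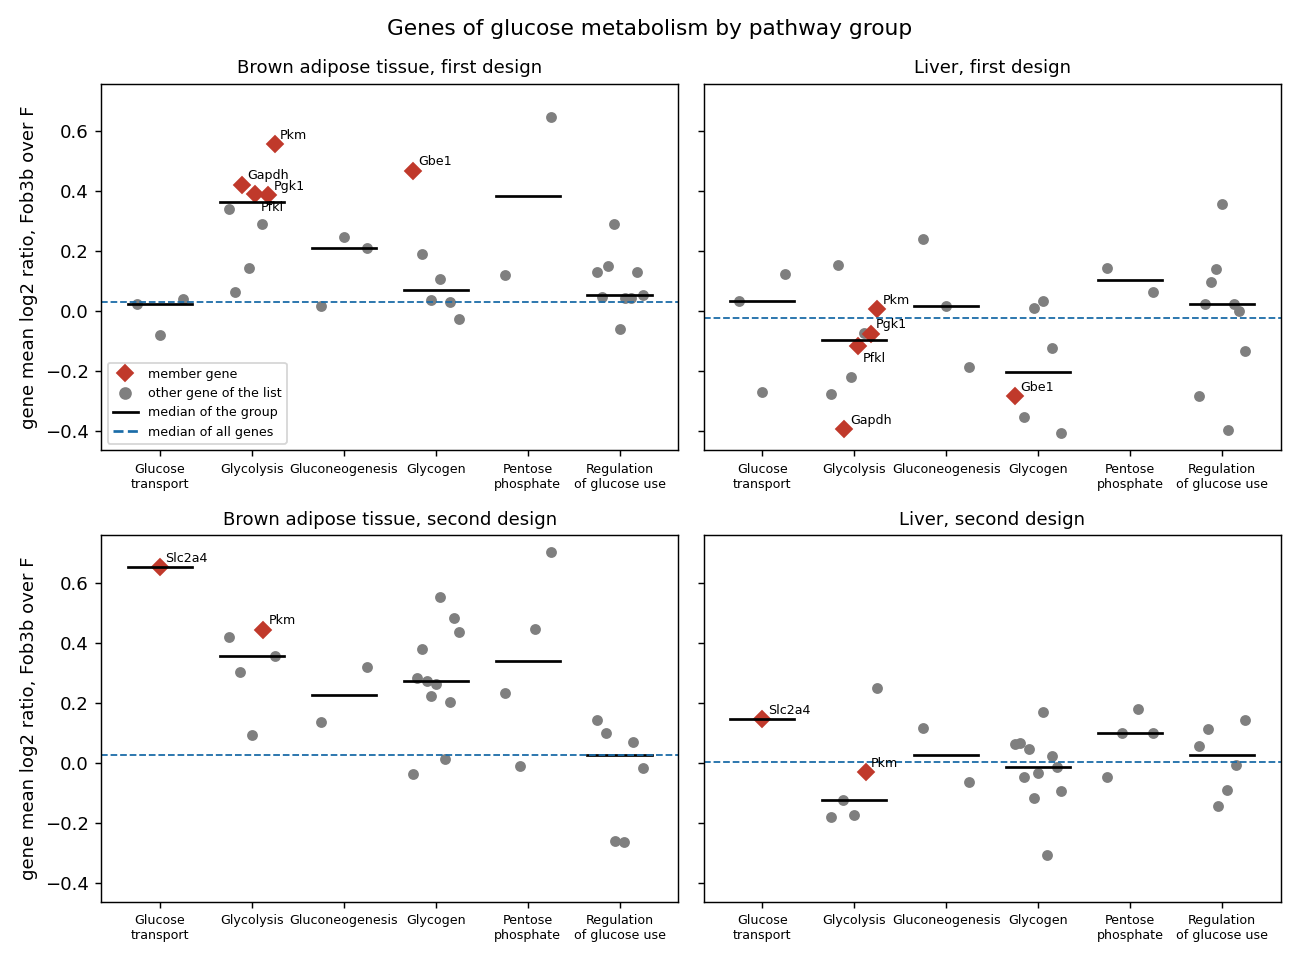
Gene mean log2 ratio of Fob3b over F (vertical axis) for the measured genes of 6 groups of glucose metabolism (horizontal axis), by tissue and design, with red diamonds for members, grey circles for other genes, a bar for each group's median and a dashed line for the median of all genes. All 8 glycolysis genes of the first design and all 5 of the second, members selected on these ratios included, lie above 0 in brown adipose tissue, against 2 of 8 and 1 of 5 in liver.

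Markers of skeletal muscle, a tissue rich in Slc2a4 and in glycolytic enzymes, had opposite signs on the 2 designs in brown adipose tissue. The first design measured 2 of the 12 listed markers, Tpm2 at -0.58 and Actn3 at -0.47, so they were low in Fob3b while the members were high. The second measured 3 of 12, all positive, Tpm2 at 0.73, Mylpf at 0.69 and Actn2 at 0.29. Tpm2, the marker on both, read -0.89 and 0.73 in the same pool pair 1, so the designs disagreed in sign on 1 RNA. Slc2a4 at 0.65 lay within that range, and the part of muscle RNA in its ratio was not tested. Of the 10 brown adipocyte markers none was measured on the first design, and the second measured Prdm16 at -0.15, Fabp3 at -0.11 and Elovl3 at -0.06. The tissue label thus could not be checked against Ucp1, the defining gene of brown fat, and ratios give no level.

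In liver no member clone passed the test on either design. The 7 means of the first design ran from -0.39 to 0.05 with a median of -0.07, and 2 of 7 were positive. The adjusted p was 0.99998 for each in limma, and 0 of 7680 clones were called (0%), with 253 at an unadjusted p under 0.05.

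Gapdh had the lowest liver mean, -0.39 ± 0.63 (SD, n = 2 pool pairs), with a 95% interval of -0.90 to 0.12. It read -0.22 and -1.46 in pool pair 1 (red, then green) and -0.47 and 0.58 in pair 2. The low mean thus came largely from 1 array, the green array of pair 1, and pair 2 alone gave 0.055. The 4 clones shared by Gapdh and its copies were also lowest on that array, from -1.86 to -0.89, but on the green array of pair 2 they read -0.24 to -0.04 where the Gapdh clone read 0.58. Gbe1 averaged -0.28 ± 0.30 (SD, n = 2; 95% interval -0.77 to 0.20), reading 0.05 and -1.04 in pair 1 and 0.16 and -0.30 in pair 2.

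The Pfkl clones disagreed in liver. Clone 140 read 0.06 and -1.07 in pair 1 and 0.24 and -0.20 in pair 2, while clone 5174 read 0.21 and 0.37 in pair 1 and 0.02 and -0.54 in pair 2. On the green array of pair 1 they stood 1.45 apart, the largest gap between clones of a member gene on any array. Their means were -0.24 ± 0.37 and 0.01 ± 0.39 (SD, n = 2 pool pairs). Each clone's 2 spots differed by at most 0.22 on every array, so the gap lay between clones.

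Pgk1 averaged -0.07 ± 0.28 in liver (SD, n = 2; 95% interval -0.51 to 0.36), with -0.002 and -0.55 in pair 1 and 0.38 and -0.13 in pair 2. Pkm averaged -0.04 ± 0.11 for clone 3702 and 0.05 ± 0.14 for clone 6582 (SD, n = 2), with 95% intervals of -0.46 to 0.38 and -0.37 to 0.47. Both clones were positive on both red arrays and negative on both green arrays. The upper ends of these 3 intervals were 0.36, 0.38 and 0.47, below the brown adipose means of the same clones, 0.39, 0.56 and 0.55. For Pfkl clone 5174 the upper end, 0.47, lay above its brown adipose mean of 0.45. The members were selected on those means, so this comparison shows nothing about the tissues. The intervals extend well to both sides of 0, so liver values near 0 do not show that the lines were alike.

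**Figure D3:**
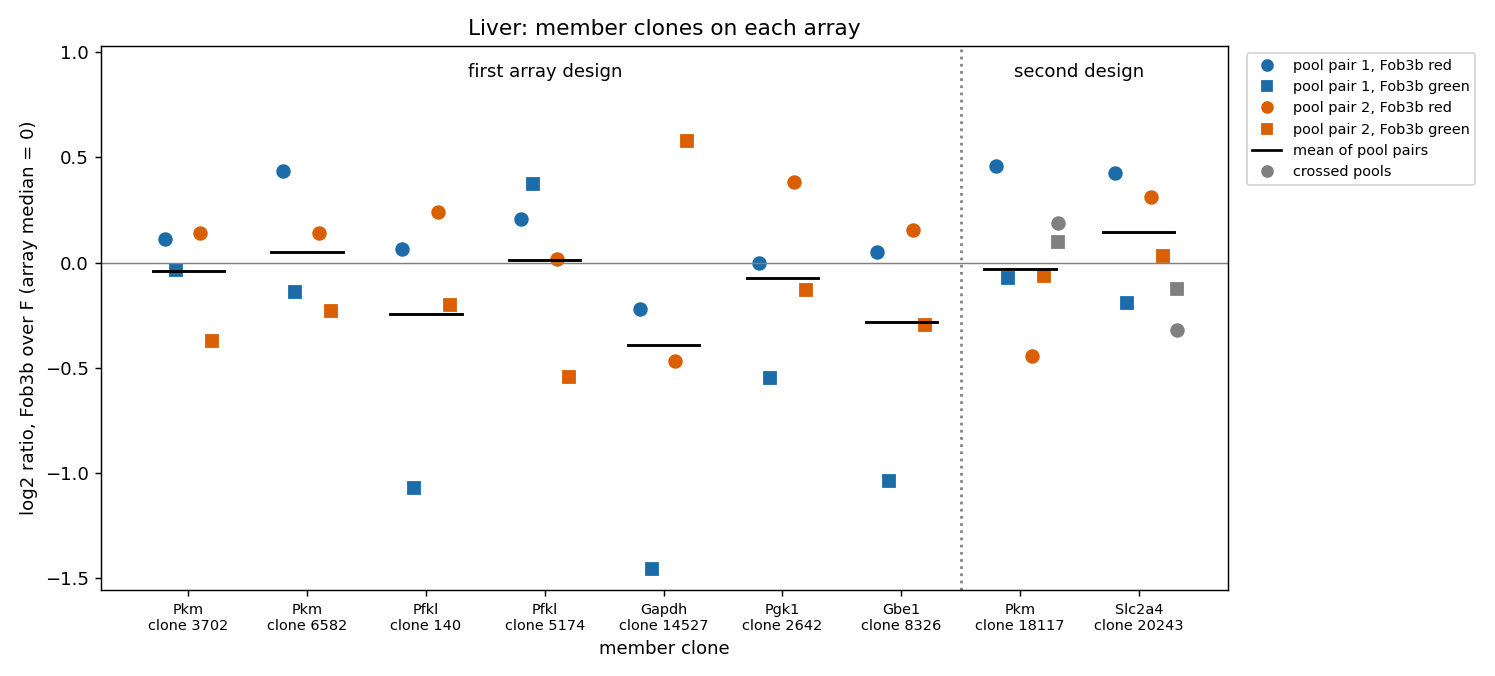
Log2 ratio of Fob3b over F in liver for each member clone (horizontal axis) on each array, with the symbols of the brown adipose plot and grey points for the crossed pools of the second design. The green array of pool pair 1 sets the low means of Gapdh (-1.46), Pfkl clone 140 (-1.07) and Gbe1 (-1.04).

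In liver limma called 29 of 7680 clones on the second design (0.378%), and neither member was among them. Slc2a4 averaged 0.15 (SE 0.08, adjusted p = 0.652 in limma, 95% interval -0.04 to 0.33), reading 0.43 and -0.19 in pair 1 (red, then green) and 0.31 and 0.03 in pair 2, and without centring its mean was -0.22. The crossed pools, which set pools of different number against each other, read -0.12 with Fob3b pool 1 in green and -0.32 with Fob3b pool 2 in red, both on the other side of 0. Pkm clone 18117 averaged -0.03 (SE 0.11, adjusted p = 0.963, 95% interval -0.29 to 0.22), with 0.46 and -0.07 in pair 1 and -0.45 and -0.06 in pair 2. Its crossed-pool arrays read 0.10 and 0.19. For neither gene did the arrays of liver keep 1 sign.

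Of 9 hepatocyte markers 4 were measured on the first design. All 4 had negative means in liver there, from -0.74 for Alb to -0.15 for Ttr, beside the negative means of Gapdh and Gbe1. In liver pool pair 2 alone Alb read -0.22, while Ttr, Apoa1 and Apob read 0.16, 0.31 and 0.24. In brown adipose tissue the same 4 read -0.17 to -0.05. The part of cell composition in the members' liver ratios was not tested. Single markers of other cells read -0.44 in liver and -0.01 in brown adipose tissue for Lyz2 of macrophages, 0.64 and 0.21 for Cdh5 of endothelium, and -0.25 in brown adipose tissue for Lpl of fat. Of 3 erythroid markers the second design measured 2, Alas2 at -0.29 and Hbb-b1 at 0.01 in brown adipose tissue.

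In liver the pathway groups were split. On the first design 16 of 31 genes were above 0, beside 44.9% of all genes, and without centring 7 of 31 were. On the second 14 of 29 were above 0 with a median of -0.01, beside 51.4% of all genes, and without centring none of the 29 was, as the median clone then stood at -0.37. Glycolysis had 2 of 8 genes above 0 on the first design (median -0.09), with Aldoa at -0.28, Ldha at -0.22, Pgam1 at -0.07 and Aldoc at 0.15. On the second it had 1 of 5 (median -0.12), with Tpi1 at 0.25, Hk1 at -0.18, Pfkm at -0.17 and Ldhb at -0.12. Of the pathway clones, 0 of 40 and 0 of 41 passed limma's adjusted threshold on the 2 designs in turn, and 0 and 3 had an unadjusted p under 0.05. The lowest pathway gene of the second design was Ppp1r3d, another glycogen-targeting phosphatase subunit, at -0.31 on average and below 0 on all 4 arrays (adjusted p = 0.181 in limma).

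The tissues were compared directly on the first design, as liver minus brown adipose ratios. All 7 member clones had the lower ratio in liver, with differences of -0.81 for Gapdh (SE 0.33), -0.75 for Gbe1 (SE 0.31), -0.60 and -0.50 for Pkm, -0.57 and -0.44 for Pfkl and -0.46 for Pgk1. The adjusted p was 0.999557 for each in limma, no clone of 7680 was called (0%), and 220 had an unadjusted p under 0.05, 3 of them members. Because the brown adipose ratios that chose the members enter this difference, its direction and its p-values for members are a description. Nothing about the members is read from the count of 3. Without liver pool pair 2 the Gapdh difference was -1.26, on a single liver pool pair. Without liver pool pair 1 it was -0.37.

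Arrays with no line difference show how far these clones stray on their own. On the array of F liver pool 1 against itself the 7 clones of the first design read -0.45 (Gapdh) to 0.30 (Pkm clone 6582), within the -0.50 to 0.80 that held all clones from the 5th to the 95th percentile. On the array of Fob3b liver pool 1 against itself they read -0.34 (Gapdh) to 0.27 (Pkm clone 3702), within -0.41 to 0.57. Gapdh and Pgk1 were the lowest members on both, with Pgk1 at -0.43 and -0.30, and Pkm gave the highest value on both. These ratios of an RNA to itself are of the size of the brown adipose means, which are averages over both dye orientations.

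Between the 2 liver pools of a line on the second design, Slc2a4 differed by 0.07 in Fob3b and 0.07 in F, and Pkm clone 18117 by 0.20 and -0.10 (pool 2 over pool 1). The 95th percentile of all clones was 0.34 and 0.35 on these arrays, which hold liver and not brown adipose pools.

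**Figure D4:**
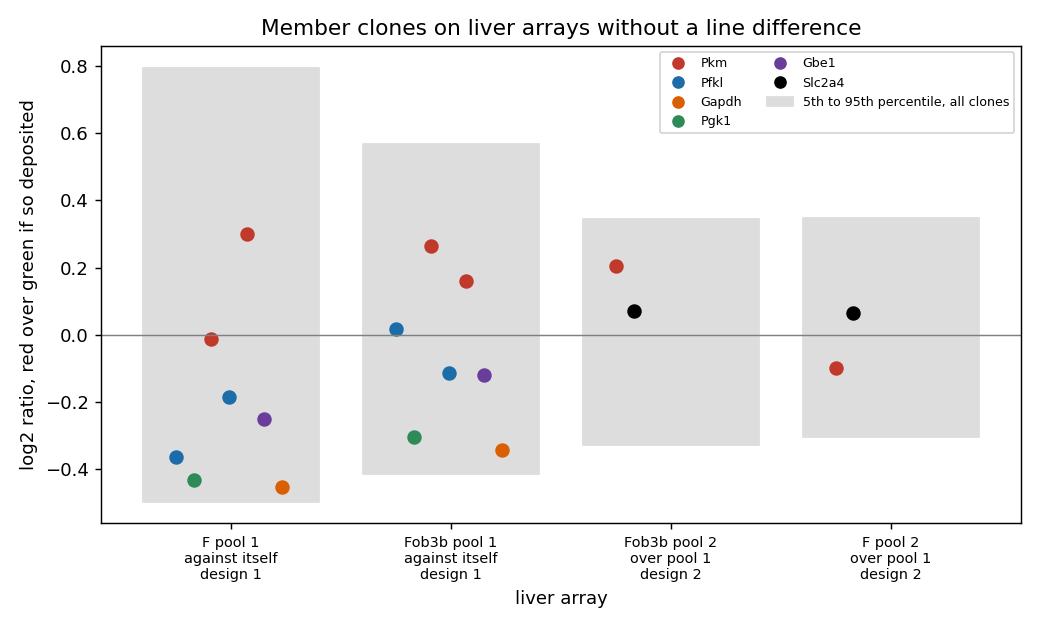
Log2 ratio as deposited and centred (vertical axis) of each member clone on the 4 liver arrays that hold no line difference, coloured by gene, with grey bars from the 5th to the 95th percentile of all clones. Every member point lies inside its grey bar, and on both self against self arrays Gapdh (-0.45 and -0.34) is the lowest member and a Pkm clone (0.30 and 0.27) the highest.

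The clones whose arrays most resembled the members were named by their Pearson correlation with the mean of the member genes, over the arrays that compare the lines directly, with no test. On the first design, over 8 arrays of both tissues, these were Deptor clone 11974 (0.98), Rpsa clone 528 (0.96), Abcb6 clone 8075 (0.96), and Atp5h and Pdha1 (0.95 each). Deptor, Rpsa, Atp5h and Pdha1 each had 1 other clone on this design, which was not among the 5 most similar. Deptor encodes an inhibitor of mTOR, Rpsa a ribosomal protein, Abcb6 a porphyrin transporter, Atp5h a subunit of ATP synthase and Pdha1 a subunit of pyruvate dehydrogenase. On the second design, over 6 arrays, they were Sorl1 (0.9995), Nmt1 (0.99), Id3 (0.99), U2af1l4 (0.98) and Dctn6 (0.97). The arrays share RNA and dye orientation, and each list is the top of a whole design over few points.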

How the data were processed

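The deposited values are 1 log ratio per spot and array, taken as log2. The file headers and labels state neither base, numerator, background step nor normalization by the authors, and no intensities were used here. Each of 20 arrays had 17280 spots. The 1920 control spots were left out and the 2 spots of each of 7680 clones, 160 rows apart, were averaged. Arrays were centred on the median clone spot, turned to Fob3b over F by the channel labels, and dye swaps of a pool pair were averaged. Clones were tested with limma 3.58.1 (R 4.3.3), tissue as factor, with Benjamini-Hochberg adjustment over 7680 clones, checked on simulated data. Brown adipose tissue on the second design, with 1 pool pair, was not tested.

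Clones with 1 annotated gene were named (4749 and 4855 on the 2 designs, with 227 and 274 matching several genes and 2704 and 2551 none). Symbols were checked against GRCm38.p6 RefSeq, which also gave the promoters. Probe intensity is not known, so the number of arrays and the agreement of spots set the precision.

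The members, the 6 pathway lists, the marker lists (brown adipocyte, fat, skeletal muscle, hepatocyte, macrophage, erythroid, endothelial) and the tests were chosen with earlier results of these data known. By rule, up to 4 measured genes outside the members were named per pathway group and comparison, those with the largest absolute mean, and others named here were picked after their values were seen. Alternatives covered centring, scaling, single spots, replicates, gene averages, crossed pools and left-out arrays. Pool numbers are shared between tissues, but no label says that they share animals. Over all clones the deviations of same-numbered pairs correlated at 0.38, which with 2 pairs does not show pairing, so no block was used.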

Additional observations from a re-analysis of the deposited data

How the results depend on the processing

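Brown adipose member ratios kept their sign under every alternative run, left-out arrays included, and the lowest was 0.01 for Pkm clone 6582 without the red array of pool pair 2. The members were selected on these positive ratios, so the kept sign is a description and supports nothing about them. No run took the green array of pair 2 alone, where only 2 of 7 member clones were positive. With the pool number as a replicate block, fitted for the design that read both pairs of both tissues, 0 clones were called in either tissue or in their difference, and this changed no other call. Liver ratios near 0 turned sign: with printing blocks centred Pkm clone 3702 read 0.078, without centring Pfkl clone 5174 read -0.076, Pkm clone 6582 -0.037 and Slc2a4 -0.22, and with crossed pools added Pkm clone 18117 read 0.027. Leaving out pool pairs or arrays moved liver ratios from -0.53 to 0.042 for Pfkl clone 140, -0.28 to 0.13 for Pgk1, -0.17 to 0.0895 for Pkm clone 3702, -0.26 to 0.29 for Pfkl clone 5174, -0.092 to 0.19 for Pkm clone 6582 and -0.84 to 0.055 for Gapdh. On the second design it moved them from -0.25 to 0.19 for Pkm and -0.0088 to 0.30 for Slc2a4. The liver minus brown adipose difference of Pkm clone 6582 ran from -1.03 to 0.038 and that of Gapdh from -1.26 to -0.37. The causes were not tested.

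Counts of called clones depended on the processing. On the first design they were 1 without centring and 4 with the tissue fitted alone in brown adipose tissue, and left-out pairs or arrays gave 0 to 4 there (4 without either liver pair), 0 to 140 in liver and 0 to 95 for the difference (42 and 13 without liver pair 1, 140 and 95 without liver pair 2). In liver on the second design the 29 calls became 159 without centring, 0 with printing blocks centred, with arrays scaled, with the first spot alone or with crossed pools added, 75 with the second spot alone, 2 with every array its own replicate, 7 with clones averaged per gene, and 0 to 202 with arrays left out (0 without the green array of either pair, 122 and 202 without the red array of pair 1 and 2). A left-out liver pair on that design leaves no residual degrees of freedom and gave values without a test. The pathway median became 0.40 without centring in first-design brown adipose tissue (0.077 to 0.20 with left-out arrays), -0.10 and, with blocks centred, 0.24 on the second, and -0.37 without centring in liver on the second (-0.018 to 0.048). In liver on the first design left-out arrays gave -0.14 to 0.065. Uncentred arrays shift the median clone on the first design by 0.27 in brown adipose tissue and -0.09 in liver, and by -0.36 and -0.37 on the second.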
